A study of Mus musculus with 12 samples.

Results

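The transcripts described here encode the subunits of heterotrimeric G proteins and the RGS proteins that switch them off. Members were every array probe whose gene symbol begins with Gna, Gnb, Gng or Rgs in the forms used for alpha, beta and gamma subunits and for numbered RGS genes. The rule used no measured value, and it picked 113 of the 45281 probes, for 56 genes. Of these, 74 probes for 41 genes reached a detection p under 0.05 on 4 or more arrays and were tested, out of 23516 tested probes and 11698 tested genes. The filter on detection can pass a probe through the group in which it is bright, so the 41 genes are those measurable in this tissue and not the whole family.

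The tissue was amygdala from male C57Bl/6J mice aged 10 weeks, punched bilaterally with a 1 mm punch and profiled on Illumina bead arrays, with 4 arrays in each of 3 groups. IMO_FC mice were both immobilized and fear conditioned, and were sampled 2 h after conditioning. FC mice were fear conditioned without immobilization and sampled at the same 2 h. HC mice stayed in the home cage. The series' design text words the tests as fear expression or extinction where the sample names give fear conditioning, and the sample names are followed here. The replicates carry separate labels, but nothing states that each came from its own animal, so the p-values cover no more than the spread among the samples as labelled. A punch holds many cell types, and fewer cells of a type cannot be told apart from less RNA per cell.

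G protein-coupled receptors release an alpha subunit and a beta-gamma pair from the heterotrimer. Of the inhibitory alphas (Gi, Go, Gz), Gi and Gz lower cyclic AMP, and the stimulatory alphas (Gs and its forebrain relative Golf) raise it. Gq and G11 activate phospholipase C, and G12 and G13 act on the actin skeleton. Beta-gamma pairs open inwardly rectifying potassium channels and close calcium channels, and RGS proteins speed the GTP hydrolysis that ends the signal. The series concerns Oprl1, the receptor for nociceptin, which couples to Gi and Go.

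No member passed the test in any of the 3 comparisons. With 4 IMO_FC, 2 FC and 4 HC arrays, 0 of 41 genes had a Benjamini-Hochberg adjusted p under 0.05 by limma in IMO_FC against HC, in FC against HC or in IMO_FC against FC, where the background over all tested genes was 0% in each. The members' lowest adjusted p was 0.999 in IMO_FC against HC, 1.00 in FC against HC and 1 in IMO_FC against FC. At an unadjusted limma p under 0.05, 2 members stood out in IMO_FC against HC (Gna13 and Rgs20; background 3.27% of genes), 1 in FC against HC (Rgs16; 3.21%) and 2 in IMO_FC against FC (Gng11 and Rgs20; 3.21%). These counts are near the background shares and are not a result about the family. The differences below are therefore given as values with their errors.

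FC 1 and FC 3 stood apart from all other arrays, and this shaped every comparison with FC. They detected 11.7% and 15.9% of all probes against 39.0% to 50.7% on the other 10 arrays. Of the 113 member probes, tested or not, they detected 19 and 21 against 65 to 74. Values are therefore from the 10 other arrays unless the text says 12. Array IMO_FC 1 had the lowest detection of the 10, and was the lowest or highest of them for 24 of the 41 members (58.5%) and for 57.6% of all tested genes. Markers of the labelled tissue were present, with 9 of 10 genes of basolateral and cortical amygdala excitatory neurons and 10 of 10 of GABA and central amygdala neurons tested. In each of 13 lists of cell type markers 0 genes were called in any comparison.

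Promoters are shown for Rgs16 and Gna13, the members with the smallest p in FC against HC and among those higher in IMO_FC than in HC. Each runs from 250 bases before to 50 after the RefSeq start on build GRCm38.p6 (Rgs16 at chr1:153740103-153740402, plus strand; Gna13 at chr11:109362544-109362843, plus strand). Capitals mark matches, on either strand, to the CCAAT box (CCAAT), the GC box (GGGCGG) and the E-box (CACGTG).
Rgs16: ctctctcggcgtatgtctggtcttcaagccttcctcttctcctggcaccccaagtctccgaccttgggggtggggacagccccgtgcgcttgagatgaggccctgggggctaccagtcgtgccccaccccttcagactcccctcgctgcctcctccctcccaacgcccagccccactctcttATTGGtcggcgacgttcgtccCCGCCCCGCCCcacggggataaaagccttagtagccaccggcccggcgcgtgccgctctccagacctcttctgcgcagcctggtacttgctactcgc
Gna13: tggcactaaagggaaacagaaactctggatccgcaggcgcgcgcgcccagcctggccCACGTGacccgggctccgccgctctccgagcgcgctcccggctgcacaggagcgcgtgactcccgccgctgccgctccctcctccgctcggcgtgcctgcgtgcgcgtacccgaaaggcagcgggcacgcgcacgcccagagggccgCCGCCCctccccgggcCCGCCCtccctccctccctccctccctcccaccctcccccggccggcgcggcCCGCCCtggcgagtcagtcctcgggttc
The Rgs16 window held 1 CCAAT box, read as ATTGG on the strand shown, and 2 GC boxes that overlap by 1 base. The Gna13 window held 1 E-box and 3 GC boxes. Neither held the cyclic AMP response core TGACG or the glucocorticoid receptor motif AGAACA. Of the 41 tested genes 33 had promoters in the table, 46 in all. GC boxes occurred in 26 of these (56.5%) against 35.7% of 32851 promoters, TGACG in 13 (28.3%) against 20.8%, CACGTG in 6 (13%) against 7.15%, AGAACA in 10 (21.7%) against 19%, and CCAAT in 15 (32.6%) against 37.4%. These matches are letters in a window, and no test was made of them.

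Of the 15 untested members, most are known mainly from other tissues. The transducins of rods and cones, Gnat1 and Gnat2, and the taste alpha Gnat3 (gustducin) were detected on 0 of all 12 arrays. The same held for Gnb3, a beta subunit of cones and taste cells, for Gngt1, the rod gamma subunit, for Rgs11 of retinal bipolar cells and for Rgs18, known from platelets. Gna14 and Gna15, the Gq relatives of epithelial and blood cells, and Rgs13 of B cells each reached 3 arrays. Rgs1, a lymphocyte regulator, and Gng5 reached 2 at most, and Rgs9bp, the retinal anchor of Rgs9, reached 3. Gnb1l and Gnasas1 match the rule by name only and encode neither a subunit nor a regulator. They reached 1 and 0 arrays.

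Several of these genes lie beside detected relatives. By RefSeq order, 12 pairs of members had at most 1 protein-coding gene between them, and in 7 of these 1 gene was tested and the other was not. Counted over all 12 arrays, Gnai3 was detected on 11 and its neighbour Gnat2 on 0. Gnai1 was detected on 10 and its neighbour Gnat3 on 0. Gng11 stood at 10 beside Gngt1 at 0, Gnaq at 12 beside Gna14 at 3, and Gna11 at 10 beside Gna15 at 3. Rgs2 stood at 9 beside Rgs13 at 3, of which 1 was a fitted array. Of the 21 Rgs genes placed, 10 lie on chromosome 1. In the 3 pairs with both genes tested the IMO_FC minus HC differences were 0.14 for Rgs8 beside -0.63 for Rgs16, 0.01 for Rgs5 beside 0.05 for Rgs4, and -0.30 for Rgs9 beside 0.76 for Gna13.

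All values that follow are normalized log2 signals or differences between group means of them, given with the standard error of the limma fit or, for group means, the SD. Array values run in array order, IMO_FC 1 to 4, then FC 2 and FC 4, then HC 1 to 4. A gene is represented by its brightest tested probe. Where IMO_FC and FC are both set against HC, the HC arrays are shared.

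Of the 5 tested inhibitory alpha subunits, Gnao1, Gnai1 and Gnai3 showed small differences. Gnao1, the Go alpha that makes up much of the membrane G protein of neurons, read 10.82, 11.20, 11.32 and 11.24 on the IMO_FC arrays, 11.40 and 11.25 on the FC arrays and 11.01, 10.90, 11.36 and 11.44 on the HC arrays. The groups overlapped throughout, and IMO_FC minus HC was -0.03 ± 0.21 (SE). The 95% interval of this probe, -0.51 to 0.44, lies within a 1.5-fold change either way, and those of its other tested probes reach past it. Gnai1, a Gi alpha of neurons and glia, read 10.65, 10.74, 10.89 and 10.49 in IMO_FC, 10.73 and 10.49 in FC and 10.61, 10.87, 10.96 and 11.02 in HC. Its differences were -0.17 ± 0.20 for IMO_FC minus HC, -0.26 ± 0.24 for FC minus HC and 0.09 ± 0.24 for IMO_FC minus FC, none past the test. Gnai3, a broadly expressed Gi alpha, averaged 5.58 ± 0.23 in IMO_FC (SD, n = 4), 5.57 ± 0.35 in FC (n = 2) and 5.58 ± 0.16 in HC (n = 4).

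Gnai2 and Gnaz spread more. Gnai2, the Gi alpha that is abundant in microglia and other non-neuronal cells, read 7.40, 8.22, 8.24 and 8.09 in IMO_FC, 8.57 and 8.59 in FC and 8.02, 8.02, 8.17 and 9.15 in HC. Every IMO_FC array lay below both FC arrays, with IMO_FC minus FC at -0.59 ± 0.37 (exact permutation p = 0.133), and the HC arrays spanned both. The second Gnai2 probe gave -0.07 for that difference, and with all 12 arrays the brightest probe gave 0.21. The sum of 9 microglial markers (normalized signals, linear scale) ran from 1329 to 2162 in IMO_FC, 1665 to 1710 in FC and 1521 to 1858 in HC. Its high value on IMO_FC 1 comes with Aif1 at 9.95 and Csf1r at 8.44, while Cx3cr1 at 5.05 and C1qb at 5.32 were at their lowest there, as Gnai2 was. The part of microglia was not tested. Gnaz, a Gi relative found mainly in neurons and platelets and deactivated slowly without an RGS protein, read 9.21, 8.33, 8.03 and 8.17 in IMO_FC, 8.27 and 8.09 in FC and 8.32, 8.03, 7.55 and 7.76 in HC. Its IMO_FC minus HC difference was 0.52 ± 0.29, and 0.26 ± 0.22 without IMO_FC 1, the highest array.

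**Figure D1:**
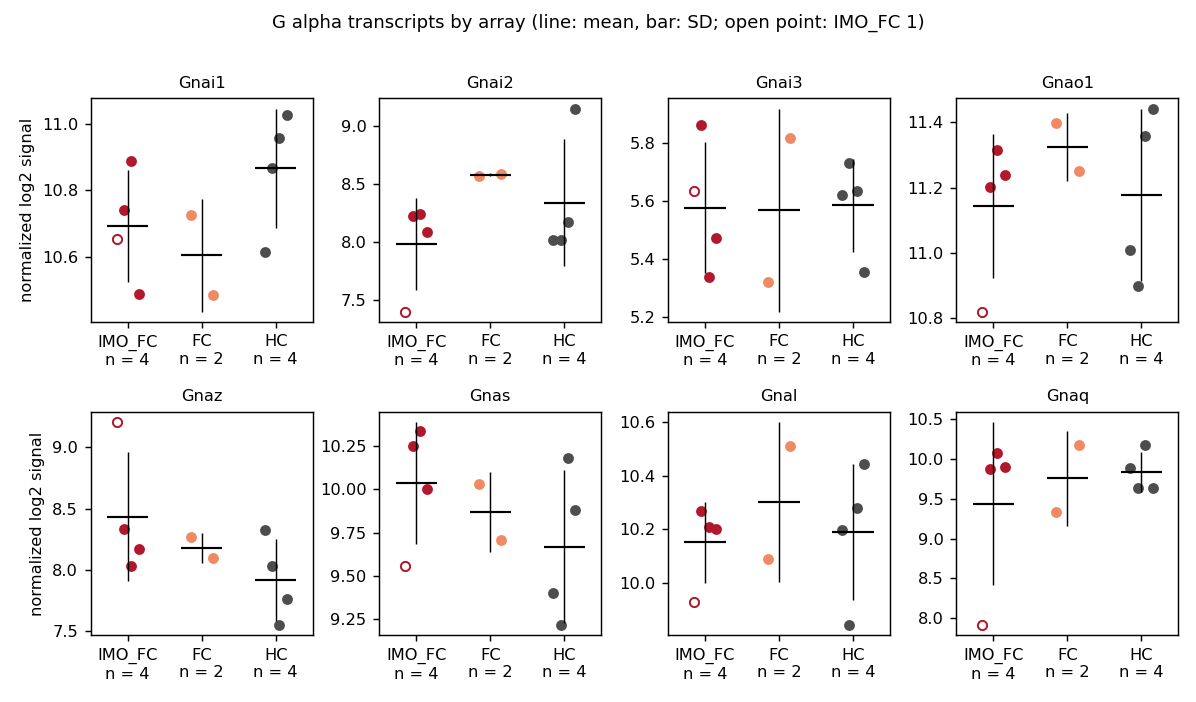
Normalized log2 signal (vertical axis) of 8 G alpha transcripts on each of the 10 arrays, in IMO_FC (4 arrays), FC (2 arrays) and HC (4 arrays); lines are means, bars SD, and the open point is IMO_FC 1. Gnao1, Gnai1, Gnai3 and Gnal overlap in all groups, and IMO_FC 1 sits alone at 7.91 for Gnaq.

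The stimulatory alphas also overlapped between groups. Gnas, the Gs alpha that couples beta-adrenergic and dopamine D1-type receptors to adenylyl cyclase, read 9.55, 10.26, 10.34 and 10.00 in IMO_FC, 10.03 and 9.71 in FC and 9.40, 9.21, 10.18 and 9.88 in HC. Differences were 0.37 ± 0.28 for IMO_FC minus HC and 0.20 ± 0.34 for FC minus HC. With all 12 arrays FC minus HC was -2.19. The 6 tested probes cover this imprinted locus, which also makes other transcripts, and their IMO_FC minus HC differences ran from -0.35 to 0.78. Gnal, the Golf alpha that takes the place of Gs in the striatum and olfactory system, read 9.93, 10.27, 10.21 and 10.20 in IMO_FC, 10.09 and 10.51 in FC and 10.20, 9.84, 10.28 and 10.44 in HC. IMO_FC minus HC was -0.04 ± 0.21, with a 95% interval of -0.51 to 0.43.

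The Gq pair showed how much weight IMO_FC 1 carries. Gnaq, which drives phospholipase C beta behind metabotropic glutamate and serotonin receptors, read 7.91, 9.88, 10.07 and 9.89 in IMO_FC, 9.34 and 10.18 in FC and 9.88, 9.64, 10.17 and 9.64 in HC. IMO_FC 1 was the lowest array, and the other 9 lay between 9.34 and 10.18. With it, IMO_FC minus HC was -0.39 ± 0.45, and without it 0.11 ± 0.24. Its 4 other probes gave IMO_FC minus HC differences of -0.18 to 0.10. Gna11, the close relative of Gnaq, averaged 9.35 ± 0.14 in IMO_FC, 9.60 ± 0.52 in FC and 9.42 ± 0.20 in HC (SD; n = 4, 2 and 4).

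In the G12 pair, Gna13 had the highest IMO_FC minus HC difference of all members. Gna13, whose product reshapes the actin skeleton, read 9.65, 8.36, 8.42 and 8.66 in IMO_FC, 8.90 and 8.50 in FC and 8.36, 8.32, 7.74 and 7.64 in HC. Both FC arrays lay above every HC array, as did IMO_FC 1, IMO_FC 3 and IMO_FC 4, while IMO_FC 2 was level with HC 1. The IMO_FC minus HC difference was 0.76 ± 0.32, a 1.69-fold ratio, with a limma p of 0.0385 unadjusted and 0.999 adjusted and an exact permutation p of 0.0571. FC minus HC was 0.69 ± 0.39 (exact permutation p = 0.133), and -1.40 with all 12 arrays. Without IMO_FC 1 the IMO_FC minus HC difference was 0.46 ± 0.24. The second tested Gna13 probe read the other way, at -0.18 for IMO_FC minus HC. Summed blood marker signal (3 of 6 genes tested) was 476 to 1010 in IMO_FC, 515 to 624 in FC and 361 to 509 in HC, highest on IMO_FC 1 as Gna13 was, and its part was not tested.

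Gna12, the other alpha subunit of this class, was near the detection limit. It was detected on 3 of 4 IMO_FC arrays, 0 of 2 FC arrays and 1 of 4 HC arrays. Its values were 5.57, 5.08, 4.65 and 5.57 in IMO_FC, 4.35 and 4.81 in FC and 5.05, 4.43, 4.74 and 4.63 in HC, so the groups overlapped. For IMO_FC minus HC the value was 0.50 ± 0.27 (exact permutation p = 0.114). Since FC had no detected array, the IMO_FC signal is given as at least 1.19-fold higher than in FC, and with all 12 arrays the fitted difference was -0.30.

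The 4 tested beta subunits overlapped between groups in all 3 comparisons. Gnb1, the most widely used neuronal beta, read 9.84, 9.66, 9.93 and 9.51 in IMO_FC, 10.43 and 9.57 in FC and 9.73, 9.94, 9.76 and 9.37 in HC. Its IMO_FC minus HC difference was 0.03 ± 0.24 (95% interval -0.50 to 0.57). Gnb2 gave 0.18 ± 0.31 for the same comparison, and Gnb5, the atypical beta that pairs with R7-family RGS proteins instead of a gamma subunit, gave -0.12 ± 0.22. Gnb4 gave 0.48 ± 0.40, with 8.18, 7.92, 7.92 and 7.89 in IMO_FC, 8.66 and 7.32 in FC and 8.38, 7.81, 7.25 and 6.54 in HC. Its IMO_FC arrays all lay inside the wide HC range.

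Among the 10 gamma subunits, 3 were above 0 in IMO_FC minus HC and 5 in FC minus HC. Gng2, a gamma subunit of many neurons, read 11.04, 11.66, 11.72 and 11.74 in IMO_FC, 11.57 and 11.43 in FC and 11.66, 11.67, 11.57 and 11.39 in HC. Apart from IMO_FC 1 these arrays lay close together, and IMO_FC minus HC was -0.03 ± 0.22. Gng3, a neuronal gamma, was at -0.45 ± 0.35 in IMO_FC minus HC and 0.10 ± 0.42 in FC minus HC. Gng4, Gng10 and Gng13 lay between -0.12 and 0.27 in both comparisons with HC.

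Gng12 was the gamma with the lowest IMO_FC minus HC difference, at -0.72 ± 0.34. It read 4.44, 6.12, 5.49 and 5.82 in IMO_FC, 5.83 and 6.07 in FC and 6.07, 6.20, 5.90 and 6.57 in HC. IMO_FC 1, where the probe was not detected, was far below the rest, and IMO_FC 2 lay within the HC range. Without IMO_FC 1 the difference was -0.38 ± 0.23, and the second Gng12 probe gave 0.22.

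Gng11, a gamma subunit best known outside neurons, separated the conditioned groups. It read 6.59, 6.97, 6.85 and 7.10 in IMO_FC, 6.11 and 6.34 in FC and 6.41, 6.50, 6.35 and 7.11 in HC. Every IMO_FC array lay above both FC arrays, while HC spanned most of the range. IMO_FC minus FC was 0.65 ± 0.28, with a limma p of 0.0427 unadjusted and 1 adjusted and an exact permutation p of 0.0667, the smallest that 4 against 2 arrays can give. With all 12 arrays it was 0.84, though FC 1 and FC 3 did not detect the probe. Without IMO_FC 1 the difference was 0.74 ± 0.27. Summed endothelial marker signal (7 of 8 genes tested) was 2124 to 2254 in IMO_FC, 2237 to 2541 in FC and 2123 to 2561 in HC. Gngt2, named for cones but detected here on 10 arrays, read 7.73, 6.84, 7.10 and 7.58 in IMO_FC, 6.19 and 7.16 in FC and 7.39, 7.68, 7.22 and 7.39 in HC. Both FC arrays lay below every HC array, with FC minus HC at -0.74 ± 0.35 (exact permutation p = 0.0667) and -0.47 at the second probe. With all 12 arrays the brightest probe gave -1.62, but it was not detected on FC 1 or FC 3. Of the photoreceptor markers only Sag was tested, with 7.27, 5.13, 5.07 and 5.34 in IMO_FC, 5.54 and 5.08 in FC and 6.66, 5.10, 5.32 and 4.55 in HC. Sag was highest on IMO_FC 1 and HC 1, its FC minus HC difference was -0.09, and its part was not tested. Crx and Rcvrn were detected on 0 and 1 arrays.

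Gng8, a gamma subunit of olfactory and habenular neurons, was the least steady member. It read 4.89, 4.82, 5.81 and 6.41 in IMO_FC, 5.70 and 6.77 in FC and 5.41, 4.55, 5.49 and 6.78 in HC. All groups overlapped, with a within-group SD of 0.83 and FC minus HC at 0.68 ± 0.62.

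In the R4 family, the small RGS proteins that act on Gi and Gq alphas, Rgs16 had the lowest FC minus HC difference of all members. It read 5.64, 6.11, 6.66 and 5.42 in IMO_FC, 5.35 and 5.62 in FC and 6.55, 6.40, 6.26 and 7.12 in HC. Both FC arrays lay below every HC array, and of the IMO_FC arrays only IMO_FC 3 lay within the HC range. FC minus HC was -1.10 ± 0.37 (95% interval -1.92 to -0.27), with a limma p of 0.0138 unadjusted and 1.00 adjusted and an exact permutation p of 0.0667. With all 12 arrays it was -1.41, but FC 1 and FC 3 did not detect the probe, so that value adds no support. IMO_FC minus HC was -0.63 ± 0.30 (exact permutation p = 0.143) and -0.52 ± 0.32 without IMO_FC 1. A single probe represents the gene. Of the 6 choroid plexus markers tested (of 12), 5 were below 0 in both comparisons with HC, and their summed signal was 2176 to 3531 in IMO_FC, 2694 to 2714 in FC and 2249 to 6100 in HC. Ttr, the plexus transport protein, stood at -2.95 ± 1.2 in IMO_FC minus HC and -2.73 ± 1.47 in FC minus HC, and the water channel Aqp1 at -2.22 ± 0.87 and -1.43 ± 1.07. In IMO_FC minus HC their limma p was 0.0329 and 0.0280 unadjusted and 0.999 adjusted for each. Kl, the one marker above 0 in both comparisons (0.30 and 0.12), gave more of the sum than Ttr on every array but HC 1 and HC 2. Ttr and Aqp1 were highest on HC 1 and HC 2 and Rgs16 on HC 4. Their part in the Rgs16 difference was not tested.

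The other R4 members showed no such separation from HC. Rgs2, a Gq inhibitor known as an activity-induced early gene in neurons, read 4.54, 6.94, 6.69 and 6.48 in IMO_FC, 5.20 and 6.06 in FC and 6.31, 6.24, 6.56 and 5.84 in HC. IMO_FC 1 was the lowest array of the 10, and the other 3 IMO_FC arrays were above both FC arrays. IMO_FC minus FC was 0.54 ± 0.58 with IMO_FC 1 and 1.08 ± 0.32 without it, with a limma p of 0.00733 unadjusted and 0.827 adjusted and an exact permutation p of 0.1, the smallest that 3 against 2 arrays can give. IMO_FC minus HC was -0.07 ± 0.48 with it and 0.46 ± 0.27 without it. Rgs4, an RGS of cortical and other forebrain neurons, read 9.17, 10.03, 9.81 and 9.90 in IMO_FC, 9.64 and 10.15 in FC and 9.93, 9.30, 9.88 and 9.61 in HC, with IMO_FC minus HC at 0.05 ± 0.26. Rgs5, a marker of pericytes, averaged 8.95 ± 0.46 in IMO_FC, 8.93 ± 0.77 in FC and 8.94 ± 0.22 in HC (SD). Rgs3 and Rgs8 lay at 0.15 ± 0.29 and 0.14 ± 0.24 in IMO_FC minus HC.

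**Figure D2:**
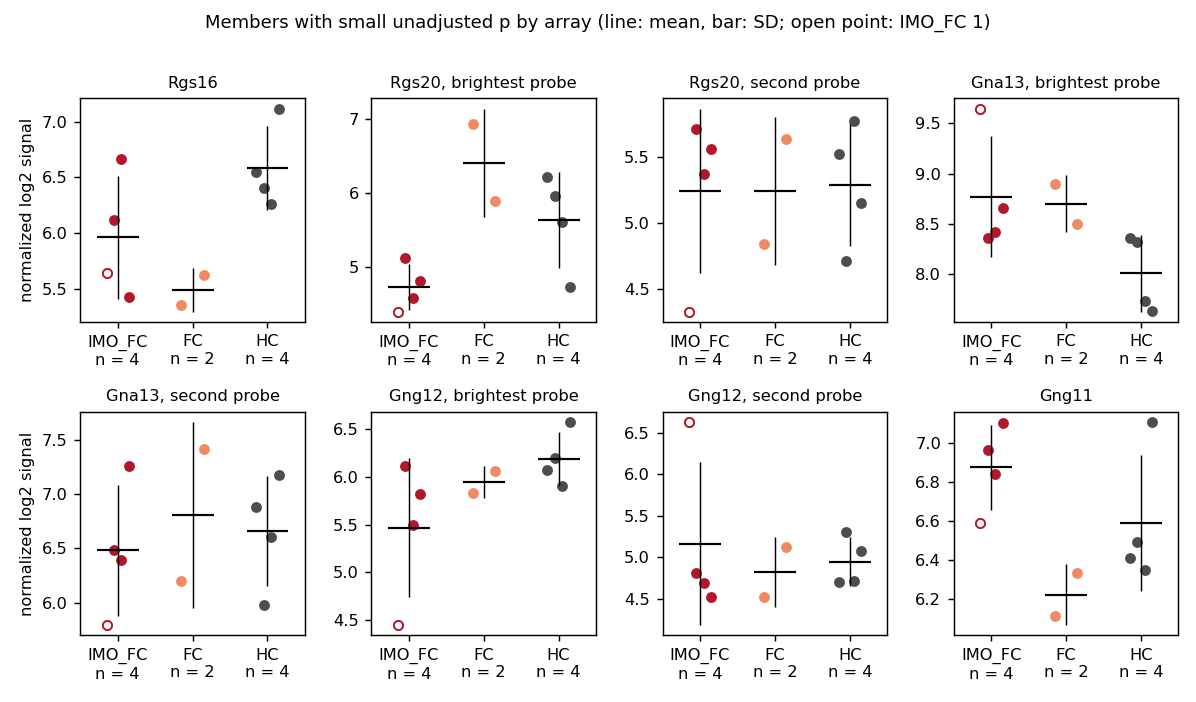
Normalized log2 signal (vertical axis) by array in IMO_FC (4 arrays), FC (2 arrays) and HC (4 arrays) for members with small unadjusted p and, for Rgs20, Gna13 and Gng12, their second probe; lines are means, bars SD, and the open point is IMO_FC 1. The 2 FC arrays are below all HC arrays for Rgs16, and the second probes of Rgs20, Gna13 and Gng12 show overlapping groups.

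The R7 family, whose members work as complexes with Gnb5 and a membrane anchor, held Rgs6, Rgs7, Rgs9 and the anchor Rgs7bp. Rgs7, which regulates Go in many neurons, was at -0.03 ± 0.30 in IMO_FC minus HC and -0.36 ± 0.37 in FC minus HC. Rgs7bp, its palmitoylated anchor, was at -0.08 ± 0.26 and 0.01 ± 0.32 in the same comparisons. Rgs6, which acts on potassium channel signalling by Gi, was detected on 6 arrays and stood at 0.57 ± 0.43 and 0.22 ± 0.52.

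Rgs9, known for its striatal splice form that restrains dopamine D2 signalling, read 7.41, 6.85, 7.03 and 7.80 in IMO_FC, 7.53 and 8.14 in FC and 7.94, 7.29, 6.95 and 8.10 in HC. The groups overlapped, with IMO_FC minus HC at -0.30 ± 0.32 and IMO_FC minus FC at -0.56 ± 0.40 (0.81 with all 12 arrays). Gng7, the striatal partner of Gnal, read 9.85, 8.86, 8.13 and 8.68 in IMO_FC, 9.27 and 9.06 in FC and 9.56, 8.33, 8.62 and 9.19 in HC. The summed signal of 9 striatal neuron markers varied within each group, from 1546 to 4025 in IMO_FC, 2089 to 3558 in FC and 1545 to 3708 in HC. Gng7 and these markers were both highest on IMO_FC 1 and next highest on HC 1 relative to their means, at 0.89 and 0.60 for Gng7 and 0.61 and 0.54 for the markers' median. They were low together on IMO_FC 3 and HC 2, at -0.82 and -0.63 for Gng7 and -0.74 and -0.72 for the markers. On FC 2 they parted, with Gng7 at 0.31 and the markers at -0.65. Rgs9 was high with the markers on FC 4, HC 1 and HC 4 and did not stand high on IMO_FC 1, at -0.09. Gnal was at -0.27 on IMO_FC 1, 0.01 on IMO_FC 3 and 0.00 on HC 1, apart from the markers. It went with them on HC 2 (-0.35), FC 4 (0.31) and HC 4 (0.24). The part of neighbouring striatum in these values was not tested.

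**Figure D3:**
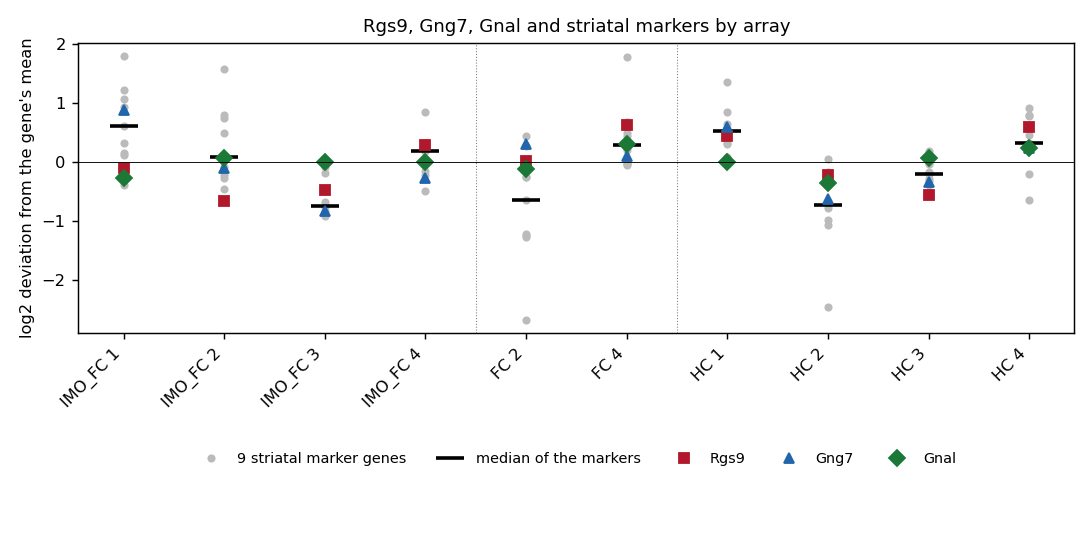
Log2 deviation from each gene's mean over the 10 arrays (vertical axis) for Rgs9, Gng7, Gnal and 9 striatal neuron markers, on the IMO_FC, FC and HC arrays from left to right; black lines are the markers' medians. Gng7 follows the marker median on IMO_FC 1, IMO_FC 3, HC 1 and HC 2, and it does not on FC 2, where Gng7 is at 0.31 and the median at -0.65.

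In the R12 family, Rgs10, a small RGS of microglia and neurons, was the steadiest member of all. It read 11.26, 11.17, 10.95 and 10.92 in IMO_FC, 11.02 and 11.01 in FC and 11.10, 11.11, 10.99 and 11.32 in HC. With a within-group SD of 0.14 its IMO_FC minus HC difference was -0.06 ± 0.19, with a 95% interval of -0.47 to 0.36. Rgs14, which limits plasticity in hippocampal CA2 neurons, read 9.58, 8.32, 8.16 and 7.12 in IMO_FC, 8.69 and 8.02 in FC and 8.33, 8.30, 8.23 and 7.51 in HC. Its IMO_FC arrays held both the highest and the lowest value of the 10, and IMO_FC minus HC was 0.20 ± 0.45. Rgs12, a scaffold with several signalling domains, was at -0.40 ± 0.45 with IMO_FC 1, its lowest array, and at 0.08 ± 0.29 without it.

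The Rz family acts mainly on Gz and Gi alphas. Rgs20, a regulator selective for Gz, had the lowest IMO_FC minus HC and the lowest IMO_FC minus FC difference of all members. It read 4.39, 5.12, 4.58 and 4.80 in IMO_FC, 6.93 and 5.89 in FC and 6.21, 5.96, 5.61 and 4.73 in HC. Every IMO_FC array lay below both FC arrays and below HC 1, HC 2 and HC 3, while HC 4 lay within the IMO_FC range. The probe was dim, detected on 1 of 4 IMO_FC, 2 of 2 FC and 3 of 4 HC arrays. IMO_FC minus FC was -1.69 ± 0.44 (95% interval -2.65 to -0.72), with a limma p of 0.00279 unadjusted and 1 adjusted and an exact permutation p of 0.0667. IMO_FC minus HC was -0.90 ± 0.36, with a limma p of 0.0283 unadjusted and 0.999 adjusted and an exact permutation p of 0.0857. FC minus HC was 0.78 ± 0.44, and -0.09 with all 12 arrays.

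The second Rgs20 probe gave no such pattern. It read 4.33, 5.71, 5.37 and 5.56 in IMO_FC, 4.85 and 5.64 in FC and 5.53, 4.71, 5.78 and 5.16 in HC. Its differences were -0.05 for IMO_FC minus HC and 0.00 for IMO_FC minus FC. With all 12 arrays the brightest probe gave -0.74 for IMO_FC minus FC, and without IMO_FC 1 it gave -1.61 ± 0.46 there and -0.82 ± 0.39 for IMO_FC minus HC.

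IMO_FC 1 stood apart for Rgs17 and Rgs19, the other Rz members. Rgs17, a brain regulator of Gz and Gi, read 7.44, 9.0, 8.96 and 8.83 in IMO_FC, 8.51 and 8.59 in FC and 8.76, 8.91, 8.92 and 8.68 in HC. Rgs19, first described as a Gi partner, read 8.18, 6.14, 5.91 and 6.17 in IMO_FC, 5.68 and 5.70 in FC and 6.39, 6.47, 5.76 and 6.11 in HC. For each gene both FC arrays lay below every HC array, with FC minus HC at -0.26 ± 0.41 and -0.49 ± 0.55 (exact permutation p = 0.133 for each). The second Rgs19 probe gave 0.04 for FC minus HC. Without IMO_FC 1, IMO_FC minus HC moved to 0.11 ± 0.17 for Rgs17 and -0.11 ± 0.21 for Rgs19.

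**Figure D4:**
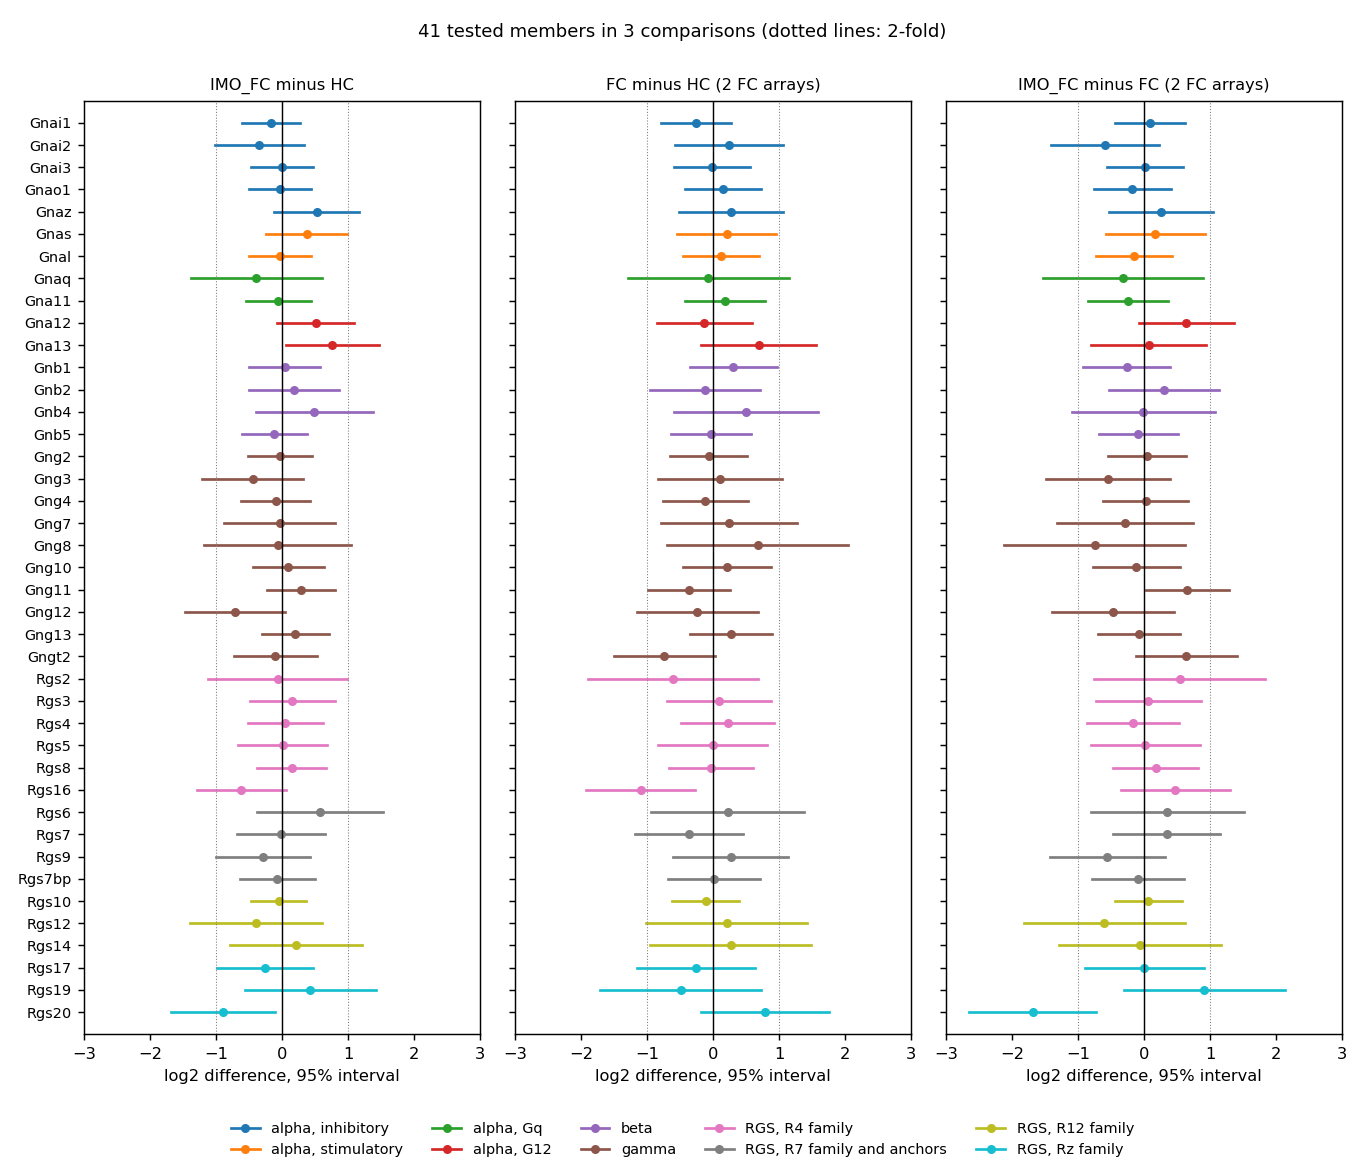
Log2 difference with its 95% interval (horizontal axis) for the 41 tested members, coloured by role, in IMO_FC minus HC (left), FC minus HC (middle) and IMO_FC minus FC (right), with dotted lines at a 2-fold change. Most intervals cross 0; those of Gna13 and Rgs20 on the left, Rgs16 in the middle and Gng11 and Rgs20 on the right do not, before adjustment over all probes.

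Over all 41 members the differences were about the size seen over all tested genes. The median absolute difference was 0.17 in IMO_FC minus HC, 0.22 in FC minus HC and 0.24 in IMO_FC minus FC, against 0.21, 0.23 and 0.23 over all tested genes. The median difference was -0.03 in IMO_FC minus HC, 0.09 in FC minus HC and 0.00 in IMO_FC minus FC, against -0.02, -0.01 and -0.01 over all tested genes. Members above 0 numbered 17, 22 and 21 of 41 in these comparisons, and 47.2%, 48.8% and 48.6% of all genes were above 0. In IMO_FC against HC, 0 members had groups that did not overlap (background 1.06% higher and 1.39% lower). In FC against HC, 1 member had both FC arrays above all HC arrays (Gna13; background 5.28%) and 5 had both below (Gng11, Gngt2, Rgs16, Rgs17 and Rgs19; 6.07%). In IMO_FC against FC, 2 members had every IMO_FC array higher (Gng11 and Rgs19; 4.52%) and 2 lower (Gnai2 and Rgs20; 4.86%).

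The intervals say how large a change these arrays could have missed. In IMO_FC minus HC the 95% interval lay within a 2-fold change for 24 of 41 members (57.4% of all genes) and within a 1.5-fold change for 7 (12.8%). Those 7 were Gnai3, Gnao1, Gnal, Gna11, Gnb1, Gng2 and Rgs10, each by its brightest probe. Intervals of other tested probes of Gnao1, Gnal, Gna11 and Gng2 reached past 1.5-fold. In FC minus HC 21 members lay within 2-fold (40.3% of all genes) and 0 within 1.5-fold (3.23%). In IMO_FC minus FC 20 lay within 2-fold (40.3%) and 2, Gnai3 and Rgs10, within 1.5-fold (3.53%). The intervals of the other 17 members in IMO_FC minus HC, Gnaq, Gng8, Rgs2, Rgs12, Rgs14 and Rgs19 among them, reached past 2-fold.

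Probes of the same gene often disagreed in sign. Of the 20 members with several tested probes, the sign differed between probes in 12 for IMO_FC minus HC, 9 for FC minus HC and 11 for IMO_FC minus FC. No share over all genes with several probes is given here, so these counts are not a trait of the members. In IMO_FC minus HC the probes spanned -0.28 to 0.59 for Gnal, -0.03 to 0.41 for Gnao1, -0.12 to 0.43 for Gnb5, -0.40 to 0.21 for Rgs12, -0.26 to 0.14 for Rgs17, -0.07 to 0.19 for Gna11, -0.04 to 0.26 for Gng7 and -0.03 to 0.06 for Gng2, beside those given above. In FC minus HC they spanned -1.08 to 0.53 for Gnaq, -0.51 to 1.21 for Gnas, -0.05 to 0.78 for Rgs20, -0.19 to 0.15 for Gnal, -0.08 to 0.24 for Gng7, -0.07 to 0.24 for Gng2, -0.06 to 0.21 for Gng10 and -0.03 to 0.35 for Gnb5. In IMO_FC minus FC they spanned -1.69 to 0.000606 for Rgs20, -0.71 to 0.96 for Gnaq, -0.43 to 0.17 for Gnas, -0.48 to 0.34 for Gng12, -0.28 to 0.33 for Gng7, -0.27 to 0.32 for Gnao1, -0.26 to 0.44 for Gnal and -0.32 to 0.07 for Gna13. For Gng10, Gng2 and Gnb5 they lay between -0.18 and 0.25. The within-group SD had a median of 0.42 over the members and 0.45 over all tested genes.

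Adding FC 1 and FC 3 turned many comparisons with FC. With all 12 arrays 18 of 41 members changed sign in FC minus HC and 14 in IMO_FC minus FC, while 0 did in IMO_FC minus HC. No share over all tested genes is given for these sign changes, so they are not a result about the members. The median FC minus HC difference of the members became -0.79 and that of all genes -0.40. At unadjusted p under 0.05, 10 members were then lower and 1 higher in FC than in HC, where the background was 14.8% lower and 3.91% higher. In IMO_FC against FC 10 were higher and 0 lower (background 12.3% and 2.82%). The members' lowest adjusted p was 0.297 and 0.356, so 0 were called by limma here too (background 0%). In IMO_FC against HC 0 members were at unadjusted p under 0.05 with 12 arrays (background 0.111% higher and 0.256% lower). Gnai1 illustrates the size of the shift, at -3.21 in FC minus HC with 12 arrays and -0.26 with 10.

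**Figure D5:**
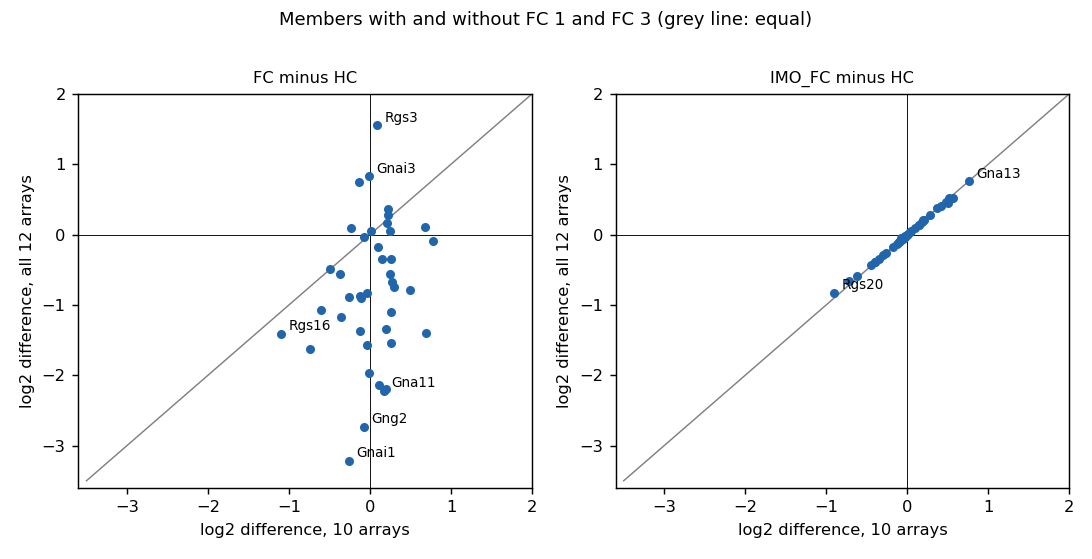
Log2 difference of each of the 41 members from the 10 arrays (horizontal axis) against all 12 arrays (vertical axis), for FC minus HC (left) and IMO_FC minus HC (right); the grey line marks equal values. The right panel follows the line, while on the left many members near 0 with 10 arrays fall well below it with FC 1 and FC 3 added, Gnai1 to -3.21.

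Partners of the G proteins in the same pathways were read from a list of effectors and other regulators (adenylyl cyclases, potassium channel subunits, receptor kinases, arrestins and phosphodiesterases among them), 47 of whose 54 genes were tested. None passed the test in any comparison (0 of 47 by limma), and 0, 1 and 2 had an unadjusted p under 0.05 in IMO_FC against HC, FC against HC and IMO_FC against FC, where the background was 3.27%, 3.21% and 3.21% of genes. Their median differences were -0.05, -0.06 and -0.05. Kcnj6, a channel subunit opened by beta-gamma, was named for its small p among the 47. It stood at 0.75 ± 0.35 in IMO_FC minus HC, with a limma p of 0.0567 unadjusted and 0.999 adjusted. Its exact permutation p there was 0.0286, the smallest 4 against 4 arrays can give. In FC minus HC it was at 0.96 ± 0.43, which was 0.01 with all 12 arrays. Of its 6 probes, only the brightest tested probe is given. Kcnj3, its partner subunit, was at -0.90 ± 0.46 in FC minus HC (exact permutation p = 0.133). It read 8.04 on FC 2, while FC 4 at 9.89 lay within the HC range of 9.46 to 10.11. In IMO_FC minus FC the receptor kinase Grk3 stood at 1.15 ± 0.45 (exact permutation p = 0.2). Its groups overlapped, with IMO_FC 3 at 5.08 and FC 4 at 5.26. The arrestin Arrb2 stood at -1.28 ± 0.54 (exact permutation p = 0.0667), which became 0.49 with all 12 arrays.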

How the data were processed

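The values are signals of single-colour Illumina mouse bead arrays from 12 amygdala samples. Per the file headers the deposited table pairs a signal intensity with a detection p-value for every array, and all value columns were mapped to samples (0 unused). A normalized intensity table from the authors keeps each array's rank order. Its method is not given in the sources used here, and it served as an alternative. Per the labels' protocols RNA was purified with the RNeasy kit and biotinylated with the Ambion MessageAmp kit.

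Signals were background corrected and quantile normalized with limma's neqc (offset 16, background from the detection p-values) and expressed as log2. The tests took probes whose detection p fell under 0.05 on 4 or more of the 12 arrays. Arrays with under 25% of probes detected (FC 1 and FC 3) were left out of the fit. Counts, medians and some single values on FC are also given with all 12. A difference from FC printed without its 12-array value can still change much when they are added. A limma model of group means was fitted to 23516 probes with 7 residual degrees of freedom (9 with 12 arrays), p-values were adjusted by Benjamini-Hochberg over all of them, with a threshold of 0.05 on the adjusted p. Exact permutation tests over arrays are two-sided. They enumerate 70 arrangements of 4 against 4 (smallest p 0.0286) and 15 of 2 against 4 (smallest 0.0667), and are not adjusted for the number of genes. The number of arrays limits the precision.

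Gene symbols came from the platform annotation, in which 34885 probes had 1 symbol, 18 had several and 10378 none. Promoters and gene order came from RefSeq tables on GRCm38.p6. A gene's brightest tested probe stood for it. Genes were named by role, with up to 3 per direction of smallest p in each comparison, and second probes where their sign differed. Rgs17, Rgs19, Rgs12, Rgs6, Rgs3, Rgs8, Gng4, Gng10 and Gng13 were named after their values were seen. Members, lists and tests were chosen with earlier results of these data known. Alternatives were all 12 arrays, array weights, no background correction, median scaling, the authors' table, no detection filter, a stricter filter, the replicate block, all probes, another threshold and each array left out. The procedure was tested on simulated data. Versions were R 4.3.3 and limma 3.58.1.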

Additional observations from a re-analysis of the deposited data

Results flagged for a closer look

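A few arrays stood far from the other 3 of their group for a member. Over all 41 tested members this was seen in 10 of the 82 groups of 4 arrays examined. Chance alone would mark about 1 independent group in 20, but these groups share the same arrays. No share over all tested genes is given here, so the count is not a result about the members. Array IMO_FC 1 accounts for 7 of the 10, in normalized log2 signal. This array was also the lowest or highest of the fitted arrays for 57.6% of all tested genes. It was low for Gnaq at 7.91 (the nearest other IMO_FC array stood at 9.88), Rgs17 at 7.44 (8.83), Gng10 at 8.24 (8.92), Gng2 at 11.04 (11.66) and Gng4 at 8.80 (9.41). It was high for Rgs19 at 8.18 (6.17) and Gnb4 at 8.18 (7.92). In HC, Gnai2 stood at 9.15 on HC 4, with the next array at 8.17, and Rgs14 stood at 7.51 on HC 4, with the next at 8.23. Rgs5 stood at 8.61 on HC 2, with the next at 9.03. The cause was not tested.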

How the results depend on the processing

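In IMO_FC against HC, FC against HC and IMO_FC against FC, 0 members were called in each of the 21 settings, with a lowest adjusted p of the members between 0.507 and 1, 0.297 and 1, and 0.203 and 1. The number at unadjusted p under 0.05 ran from 0 to 4, 0 to 11 and 0 to 10, while the share of all tested probes ran from 0.4% to 6.62%, 1.48% to 16.7% and 1.45% to 13.7%. The highest counts came with the replicate block (3.56% of probes) and, in both comparisons with FC, with all 12 arrays. A changed detection filter or threshold leaves a probe's log2 difference as it was, so such settings could not reverse a direction. Of 153 values of genes named by p under other settings, 148 kept their direction and 5 reversed, all with all 12 arrays. These were FC minus HC for Rgs20 (-0.086) and Gna13 (-1.40), and IMO_FC minus FC for Gna12 (-0.30), Gnai2 (0.21) and Rgs9 (0.81). That setting adds FC 1 and FC 3, as does the one with array weights. The cause of the reversals was not tested. The 180 values with 1 array left out kept their direction. In some of them the array belonged to neither group compared, so the difference could move only through normalization. The genes were named for small p on these same arrays, so kept directions are no independent support. Of genes named by role, 40 of 637 values moved by more than the within-group SD, and 24 of 720 with 1 array left out. Without IMO_FC 1, an alternative chosen after seeing the data, 0 members were at unadjusted p under 0.05 in IMO_FC against HC (1.5% of all genes higher and 1.94% lower), and in IMO_FC against FC 2 were higher (Gng11 and Rgs2; 2.72% of genes) and 1 lower (Rgs20; 2.35%), by limma.

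With the replicate number as a block, 0 members were called by limma, with lowest adjusted p of 0.989, 0.988 and 1.00 in IMO_FC against HC, FC against HC and IMO_FC against FC. The numbers were not shown to pair the samples: deviations of same-numbered arrays correlated at -0.143 to 0.186, with 2 of 8 pairs over 0.1, and 4 of 10 arrays correlated best with their own number. With 2 FC arrays in the fit, the deviations of FC 2 and FC 4 are exact opposites. Correlations with them mirror each other, so these counts say little about pairing. A slide block was not run because no slide is named. Rgs20, Gna12, Rgs6 and Gng8 were detected on 7 arrays or fewer, so their differences rest on signals near background.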
